A study of Homo sapiens with 9 samples.

Results

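Long intergenic non-coding RNAs (lincRNAs) of ES-2 cells, an established line derived from an ovarian carcinoma, were followed through the depletion of an RNA-binding protein, IGF2BP1 (IMP1 in the tables), and of a transcription factor, SRF. Total RNA depleted of ribosomal RNA was sequenced 72 h after transfection of a control siRNA (siC), of siRNAs directed at IGF2BP1 (siIGF2BP1) or of siRNAs directed at SRF (siSRF), with 3 libraries per condition. Genes were chosen by their deposited levels. Levels are in FPKM (fragments scaled to gene length and to a normalized library size). Rows with the biotype lincRNA were kept where the mean over all 9 libraries was at least 1 FPKM. Their gene length had to be at least 200 bases, and 510 of 7514 lincRNA genes met both conditions. Without MALAT1, NEAT1, CYTOR and 11 genes with symbols that start with MIR, 496 of the 58174 genes of the tables remained. They are called members here, and their level in itself is no result. The comparisons with siC also use values that entered the rule, but the rule takes the mean over all conditions and not the difference between them.

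LincRNAs are transcripts from genes that lie between protein-coding genes. They are mostly spliced and polyadenylated like mRNAs, without encoding a protein, and act in the nucleus (on chromatin, transcription or splicing) or in the cytoplasm (on mRNA stability, translation or proteins that bind them). Some carry small nucleolar RNAs or microRNAs inside their introns or exons. IGF2BP1 is an oncofetal protein that binds mRNAs in the cytoplasm and protects many of them from degradation, and some long non-coding RNAs have been described as ligands of it. SRF binds a DNA element called the CArG box in promoters of cytoskeletal and immediate early genes.

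Both siRNA treatments lowered their targets. IGF2BP1 mRNA was at 12.8, 13.5 and 12.1 FPKM in siC, at 4.18, 4.14 and 4.02 in siIGF2BP1 and at 13.7, 14.6 and 14.4 in siSRF. SRF mRNA was at 13.6, 14.1 and 16 FPKM in siC and 1.63, 1.36 and 1.42 FPKM in siSRF, and at 5.80, 5.42 and 6.80 FPKM in siIGF2BP1, so that the siIGF2BP1 libraries are also low in SRF. Library totals lay between 6421764 and 9416175 counted reads. The label was checked with marker genes. VIM, an intermediate filament gene of mesenchymal cells, lay between 837 and 1065 FPKM over the 9 libraries, and KRT18, an epithelial keratin, between 34.1 and 84.7 FPKM, whereas KRT8 reached 13.8 FPKM. The ovarian carcinoma markers PAX8, WT1 and EPCAM stayed at or below 0.262 FPKM. Markers of hepatocytes, leukocytes and endothelium did not exceed 0.387 FPKM, the value of PECAM1 in 1 library. In bulk libraries of this kind, fewer cells with a transcript and less of it per cell cannot be told apart.

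Most members were weakly expressed. Their mean level had a median of 2.18 FPKM (quartiles 1.4 and 3.99 FPKM), against 7.60 FPKM for the 10380 protein-coding genes of at least 1 FPKM. With a median length of 1069 bases, a member was covered by a median of 20.7 reads per library, while the protein-coding genes had 305 reads. Fewer than 10 reads per library were counted for 121 members, and 34 members reached 10 FPKM. All members together took between 0.351% and 0.421% of the reads of a library. The share was between 0.375% and 0.392% in siC, between 0.385% and 0.421% in siIGF2BP1 and between 0.351% and 0.359% in siSRF, where all libraries lay below those of the other conditions. The level was not shared by all conditions for every member, since 367 reached 1 FPKM in each of the 3 condition means, 98 in 2 of them and 31 in only 1. Of these 31, 8 reached it only in siC, 12 only in siIGF2BP1 and 11 only in siSRF. A member that entered through 1 condition had to differ in level between the condition means, so counts over such members support nothing by themselves. Just inside the threshold were RP11.571M6.17 (mean 1.00 FPKM), CTD.2116N20.1 (1.01 FPKM) and LINC01711 (1.01 FPKM), and just outside RP1.315G1.3 (0.995 FPKM), LINC00638 (0.993 FPKM) and RP11.400K9.3 (0.986 FPKM). Symbols are written as in the tables, where a dot stands in places for a hyphen.

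Most members had few exons. Of the 496, 469 have an entry in GENCODE release 44 (GRCh38), a later annotation than the one used for counting, and 464 of them are lncRNAs there, whereas 2 are now listed as protein-coding and 3 as pseudogenes. Exons of a member formed a median of 2 separate blocks, and 155 members had 1 block. The start of 105 members lay within 1 kb of the start of a protein-coding gene, in 75 cases on the other strand and facing away from it, and 149 members started more than 100 kb from any. An exon was shared with a protein-coding exon on the same strand for 22 members and on the opposite strand for 47. The libraries were made with a strand-marking kit, but the strand setting of the counting is not given in the sources used here, so reads of such pairs cannot be told apart with certainty. A small RNA lay in an exon of 19 members on the same strand. Another 11 members, with symbols starting with CH507, come from clones of a chromosome 21 region with near-identical copies and are uncertain for that reason.

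Several members contain a microRNA on their own strand. The mature sequences of 2 families (RefSeq, GRCh38.p14) are printed here, let-7 because it is known to act on IGF2BP1 mRNA and miR-30 because its host was called, with the seed (bases 2 to 8) in capitals. The let-7 family has 3 copies in RP11.2B6.2 (chr9:94166258-94200905, plus strand) and 1 copy, let-7i, in RP11.631N16.4 and RP11.631N16.2 (chr12:62602752-62622213 for the latter, plus strand).
let-7a-5p: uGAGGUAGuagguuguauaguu
let-7f-5p: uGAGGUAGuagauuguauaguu
let-7d-5p: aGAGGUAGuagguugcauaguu
let-7i-5p: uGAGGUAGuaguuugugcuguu
These 4 share the seed GAGGUAG. The other family lies in LINC00472 (chr6:71187161-71420745, minus strand), with miR-30c-2 in an exon and miR-30a in an intron.
miR-30c-5p: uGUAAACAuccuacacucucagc
miR-30a-5p: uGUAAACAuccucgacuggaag
Both have the seed GUAAACA.

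The hosts of these microRNAs were measured as long transcripts, and the mature microRNAs were not measured in these libraries. The paper sequenced small RNAs of ES-2 cells separately. RP11.2B6.2 was at 6.65, 6.36 and 7.13 FPKM in siC, at 6.82, 7.16 and 9.05 in siIGF2BP1 and at 6.54, 6.19 and 7.85 in siSRF, and passed the test in no comparison (adjusted p between 0.381 and 0.902, limma-trend). RP11.631N16.4, at a mean of 14.0 FPKM, and RP11.631N16.2, at 1.57 FPKM, did not pass it either. The test used throughout was limma-trend on log2(FPKM + 0.1), which understates the change of low genes, and genes were called at a Benjamini-Hochberg adjusted p of at most 0.01 over all genes tested. The host of the miR-30 pair fell upon IGF2BP1 depletion. LINC00472 was at 12.2, 12.3 and 13.5 FPKM in siC, at 9.32, 9.32 and 9.22 in siIGF2BP1 and at 13.4, 12.5 and 11.6 in siSRF, with a log2 fold change of -0.44 (standard error 0.0605, adjusted p = 0.00541) for siIGF2BP1 and a log2 fold change of -0.02 (standard error 0.0746, adjusted p = 0.875) for siSRF. The siIGF2BP1 libraries lay below all other libraries. Nothing in the labels says that libraries of 1 condition come from separate cultures, so p-values measure the spread between these libraries.

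Upon IGF2BP1 depletion, 11 members were lower and 15 were higher than in siC. Over all 22292 genes tested, 3.57% were called lower and 3.55% higher, and the members' shares were 2.22% and 3.02%. The median log2 fold change of the members was 0.063, with 0.017 over all genes tested. Limma-voom on the reads recovered from the FPKM values called 19 lower and 34 higher members, where 8.48% and 8.59% of all genes were called. With 1 library left out, 9, 7 and 8 members were called in place of 26 (siC replicates 1 to 3), or 6, 10 and 4 (siIGF2BP1 replicates 1 to 3), and without siIGF2BP1 replicate 2 more were lower (6) than higher (4). Over all 3 comparisons, the 77 calls of single named members were kept in 214 of 462 fits that leave out 1 library, and none turned direction. Of the 26 calls, 8 were of members below 1 FPKM in at least 1 condition mean, 7 of which reached it in 1 condition only, and among the 367 members at 1 FPKM in each condition 10 were lower and 8 higher. The share called rose with the number of reads. Called were 16 of the 128 members with 50 reads or more per library (12.5%, against 13.6% of all such genes), 9 of 251 with 10 to 50 reads (3.59% against 2.33%) and 1 of 117 with fewer (0.855% against 0.797%).

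**Figure D1:**
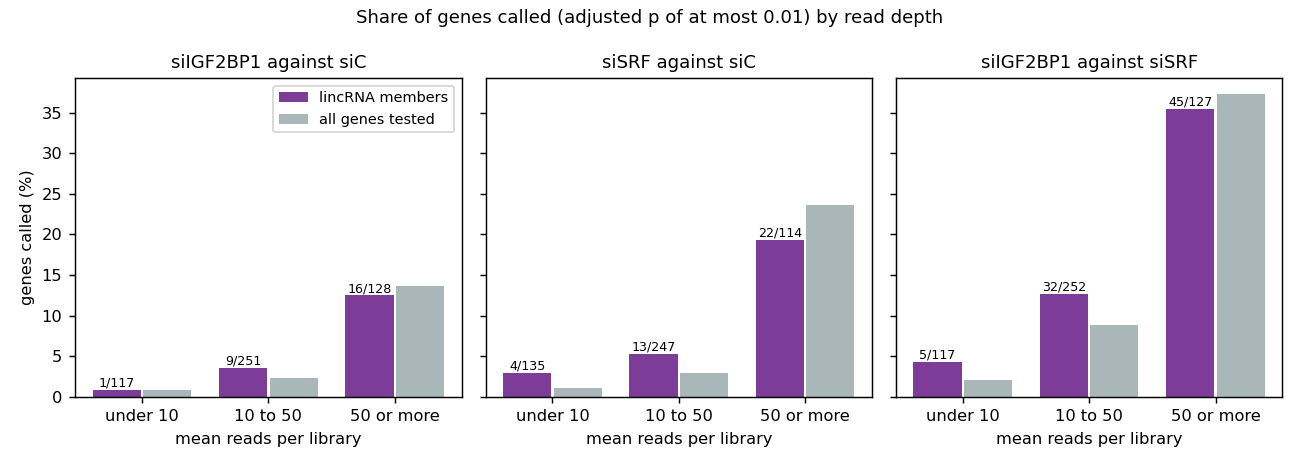
Share of genes called (y axis, in percent, limma-trend adjusted p of at most 0.01) for the lincRNA members (purple) and for all genes tested (grey), by mean reads per library (x axis), in each of the 3 comparisons. Fractions above the purple bars give called members over members. At 50 reads or more the shares were 12.5% and 13.6% for siIGF2BP1 against siC, 19.3% and 23.7% for siSRF against siC, and 35.4% and 37.3% for siIGF2BP1 against siSRF. Below 50 reads the members' share was the higher one in each comparison, for example 5.26% against 2.94% at 10 to 50 reads in siSRF against siC and 12.7% against 8.87% in siIGF2BP1 against siSRF. Members needed a mean of 1 FPKM and genes tested 0.1 FPKM, so the 2 sets are not alike there. Members below 1 FPKM in at least 1 condition mean hold 8, 10 and 25 of the calls, and such counts support nothing by themselves.

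The 3 members with the highest log2 fold change upon IGF2BP1 depletion were low in siC. RP11.356J5.12 and RP1.140K8.5 reached 1 FPKM only in siIGF2BP1, so that their rise follows from the rule that chose them and their values are a description. RP11.356J5.12 (LINC02762, chromosome 11) was at 0.181, 0.176 and 0.193 FPKM in siC, at 3.35, 3.28 and 3.93 in siIGF2BP1 and at 0.251, 0.109 and 0.108 in siSRF, with a log2 fold change of 3.67 (standard error 0.199, adjusted p = 0.000271). LINC01151 (chromosome 8, minus strand, 122485194 to 122733804) was at 1.06, 1.80 and 2.18 FPKM in siC, at 19, 20.2 and 17.8 in siIGF2BP1 and at 0.736, 0.961 and 0.713 in siSRF, with a log2 fold change of 3.47 (standard error 0.244, adjusted p = 0.000601). RP1.140K8.5 (chromosome 6) was at 0.472, 0.459 and 0.568 FPKM in siC, at 5.89, 5.26 and 6.34 in siIGF2BP1 and at 0.179, 0.186 and 0.192 in siSRF, with a log2 fold change of 3.31 (standard error 0.153, adjusted p = 0.000173). In all 3 members, each siIGF2BP1 library lay above all other libraries, and the siSRF libraries were not called against siC (adjusted p = 0.801, 0.0710 and 0.0517). Set directly against siSRF, they were again higher, by 3.86, 4.41 and 4.37 on the log2 scale (adjusted p = 0.000195, 1.25e-05 and 2.28e-05). For RP11.356J5.12 and RP1.140K8.5 this difference follows from the rule as well.

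Smaller rises were found in 5 more members, of which RP11.420A23.1, AC022182.1 and LINC00880 also reached 1 FPKM only in siIGF2BP1. LINC00205 (chromosome 21) started 137 bases from the start of POFUT2 on the other strand, and was at 3.05, 3.6 and 3.78 FPKM in siC, at 12.8, 13.1 and 10.7 in siIGF2BP1 and at 6.35, 5.76 and 4.58 in siSRF, with a log2 fold change of 1.78 (standard error 0.118, adjusted p = 0.000518). Its siSRF libraries lay between the other conditions, with a log2 fold change of 0.66 that did not pass the test (adjusted p = 0.0227). RP11.420A23.1 (LINC02615, chromosome 4), which starts 3922 bases from PGRMC2 on the other strand, had a log2 fold change of 2.25 (standard error 0.287, adjusted p = 0.00434). AC022182.1, LINC00880 and RP3.390M24.1 had log2 fold changes of 1.90, 1.89 and 1.38, with adjusted p-values of 0.00418, 0.00511 and 0.00994, the last of them just inside the threshold and not called at another pseudocount or with all 9 libraries in 1 fit. These 3 had between 10.6 and 22.1 reads per library on average. Limma-voom, on the same libraries, also called all 8 members higher (adjusted p between 6.27e-16 and 0.00442). For those that reached 1 FPKM only in siIGF2BP1, a second test adds no support, since their rise follows from the rule.

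Members that fell upon IGF2BP1 depletion included strongly expressed ones. RP11.253E3.3 (chromosome 12, 1 exonic block) was at 6.21, 7.20 and 6.93 FPKM in siC, at 3.19, 3.28 and 3.29 in siIGF2BP1 and at 6.94, 7.31 and 6.33 in siSRF, with a log2 fold change of -1.03 (standard error 0.0861, adjusted p = 0.00104). RP5.1085F17.3 (chromosome 20) was at 13.1, 13.1 and 10.7 FPKM in siC, at 7.34, 5.60 and 6.15 in siIGF2BP1 and at 13.2, 14.6 and 14.1 in siSRF, with a log2 fold change of -0.95 (standard error 0.129, adjusted p = 0.00546). Both were low in the siIGF2BP1 libraries, while the siSRF libraries were at the level of siC or above it, and both differed in the direct comparison (-1.05 and -1.13 on the log2 scale, adjusted p = 0.000217 and 0.000511). AC093323.3, which GENCODE now lists as protein-coding, fell as well, with a log2 fold change of -0.78 (standard error 0.0890, adjusted p = 0.00299).

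**Figure D2:**
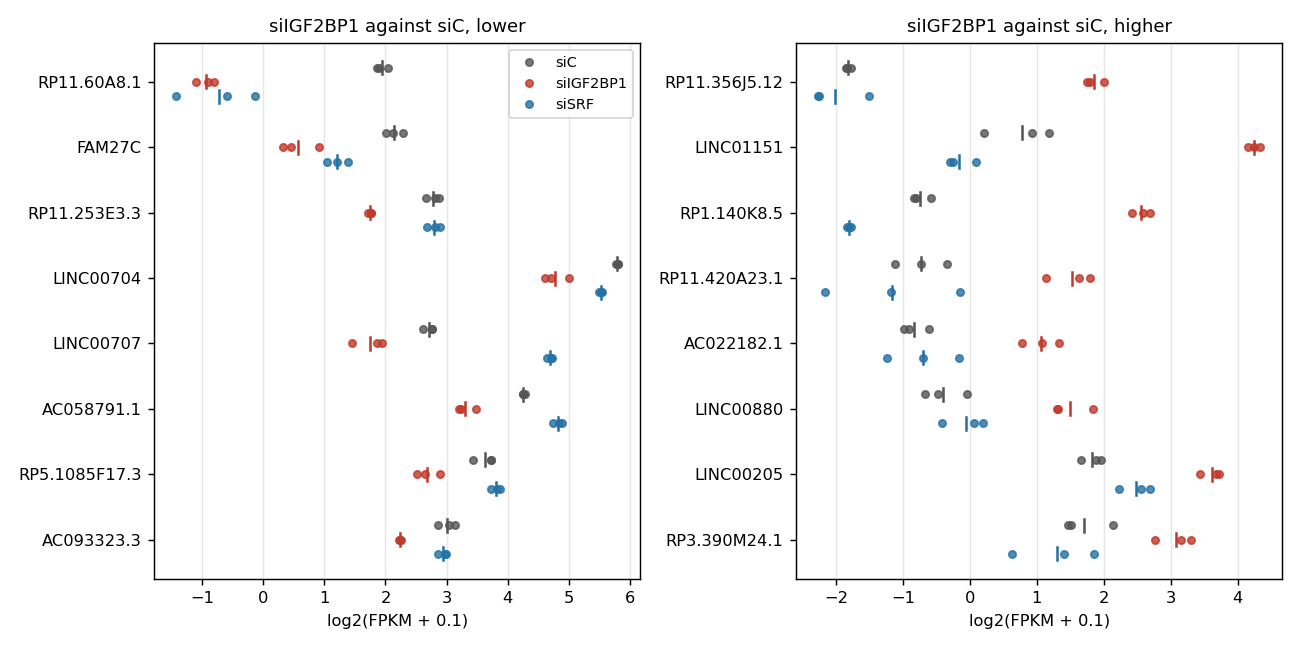
Level of the 8 members with the largest decrease (left) and the largest increase (right) upon IGF2BP1 depletion among called members with at least 10 reads per library. The x axis is log2(FPKM + 0.1), each point is 1 library (siC grey, siIGF2BP1 red, siSRF blue) and ticks are condition means. In every row the red points lie apart from the grey ones, as the choice of members requires.

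Upon SRF depletion, 26 members were lower and 13 were higher than in siC. Of the 21857 genes tested, 5.34% were called lower and 6.85% higher, so that falls were more frequent than rises among the members (5.24% and 2.62%) and less frequent over all genes. The median log2 fold change was -0.065 for the members and 0.007 for all genes tested. Limma-voom called 40 lower and 28 higher members, with 10.7% and 12.7% of all genes. With 1 library left out, the 39 calls became 13, 12 and 21 (siC replicates 1 to 3) or 12, 12 and 14 (siSRF replicates 1 to 3), with more lower than higher members each time. Members below 1 FPKM in at least 1 condition mean made up 10 of the 39, and without them 18 were lower and 11 higher.

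Of the 8 members with the largest falls upon SRF depletion and at least 10 reads per library, RP11.60A8.1 is described below, and 6 of the other 7 were lower in siSRF than in siIGF2BP1 too. OVAAL (chromosome 1), named for its amplification in ovarian adenocarcinoma, was at 19.1, 17.3 and 16.7 FPKM in siC, at 15.0, 15.4 and 15.1 in siIGF2BP1 and at 6.02, 7.44 and 6.47 in siSRF, with a log2 fold change of -1.40 (standard error 0.0956, adjusted p = 0.000473). LINC01425 (chromosome 21) was at 31.8, 33.5 and 35.8 FPKM in siC, at 26.7, 20.4 and 28.1 in siIGF2BP1 and at 12.9, 13.4 and 12.6 in siSRF, with a log2 fold change of -1.37 (standard error 0.0569, adjusted p = 0.000117). OLMALINC (chromosome 10), first described in oligodendrocyte maturation, was at 4.45, 3.92 and 4.17 FPKM in siC, at 4.14, 3.17 and 3.29 in siIGF2BP1 and at 1.32, 1.29 and 1.12 in siSRF, with a log2 fold change of -1.68 (standard error 0.124, adjusted p = 0.000553). In all 3 members the siSRF libraries lay below every other library. The difference from siIGF2BP1 was itself called, at 1.18, 0.93 and 1.43 on the log2 scale (adjusted p = 0.000169, 0.00178 and 0.000822).

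The direct difference was also called for RP5.884M6.1 (LINC02577), LINC01234 and RP11.147L13.11. Their log2 fold changes upon SRF depletion were -1.80, -1.61 and -1.39 (adjusted p = 0.00150, 0.00488 and 0.000424). In the direct comparison they were higher in siIGF2BP1 by 1.34, 2.01 and 1.69 (adjusted p = 0.00350, 0.000601 and 0.000845). RP3.388N13.5, with a log2 fold change of -1.35 (standard error 0.207, adjusted p = 0.00562), was not called in the direct comparison (adjusted p = 0.0824) and contains a microRNA gene, MIR378D2, in its exon.

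Rises upon SRF depletion were led by 2 members of very different build. LINC00707 is described below. RP11.160E2.6 (chromosome 17, minus strand, 19112000 to 19112636) was at 29.0, 28.0 and 32.3 FPKM in siC, at 29.7, 29.3 and 31.5 in siIGF2BP1 and at 104, 98.5 and 99.7 in siSRF, with a log2 fold change of 1.76 (standard error 0.0625, adjusted p = 6.26e-05). All siSRF libraries lay more than 3-fold above those of the other conditions. Its exon holds SNORD3D, a copy of the U3 small nucleolar RNA that takes part in ribosomal RNA processing, and the SNORD3D row is listed at 0 in all 9 libraries. No rise was called in the near-identical U3 rows. SNORD3A was at 2071, 2591 and 1811 FPKM in siC and 1536, 1696 and 1840.3 FPKM in siSRF, and the 4 U3 rows with reads had log2 fold changes between -0.34 and -0.13 (adjusted p between 0.165 and 0.496). Since reads of U3 copies could be split among rows, the value of RP11.160E2.6 is uncertain.

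LINC01436 (chromosome 21) starts 470 bases from a RUNX1 start on the other strand, and was at 5.93, 5.62 and 8.58 FPKM in siC, at 7.09, 8.89 and 10.3 in siIGF2BP1 and at 15.2, 14.9 and 12.3 in siSRF, with a log2 fold change of 1.08 (standard error 0.176, adjusted p = 0.00705). RP3.400B16.1 (ECI2-DT), AC112721.1 and RP13.631K18.2 (LINC02547) rose by 1.66, 1.61 and 1.42 on the log2 scale (adjusted p = 0.00240, 0.00525 and 0.00213) from means of 0.531, 1.41 and 0.806 FPKM in siC. RP3.400B16.1 and RP13.631K18.2 reached 1 FPKM only in siSRF, so that their rise follows from the rule. The row named RNU12, a lincRNA whose exon holds the U12 small nuclear RNA of the minor spliceosome, had a log2 fold change of 0.97 (standard error 0.171, adjusted p = 0.00946), and reads of both cannot be told apart. This call was lost with a pseudocount of 1 and without the filter on low values. An alternative added after seeing the data set aside members that share a same-strand exon with a small RNA or a protein-coding gene. It also set aside the 27 members without a GENCODE entry, and 21 lower and 10 higher members of 428 were left.

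The remaining called members were chosen for mention after their values had been seen. Upon IGF2BP1 depletion LINC00346 (PRECSIT) rose by 1.10 and LINC01358 by 0.65 on the log2 scale (adjusted p = 0.00204 and 0.00630). Upon SRF depletion LINP1, an RNA with a known part in joining DNA breaks, was at 32.1, 33.5 and 31.1 FPKM against 43.4, 48.6 and 47.3 FPKM in siC, with a log2 fold change of -0.53 (standard error 0.0567, adjusted p = 0.00167). APTR, described as a regulator of p21, went the other way, with a log2 fold change of 0.88 (standard error 0.143, adjusted p = 0.00692). LINC00941 and LINC01204 were higher by 0.79 and 0.91 (adjusted p = 0.00571 and 0.00185), and RP11.230G5.2 was lower, with -0.89 (adjusted p = 0.000639). Fewer than 10 reads per library stood behind 4 of the members called upon SRF depletion and behind 1 of those called upon IGF2BP1 depletion.

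**Figure D3:**
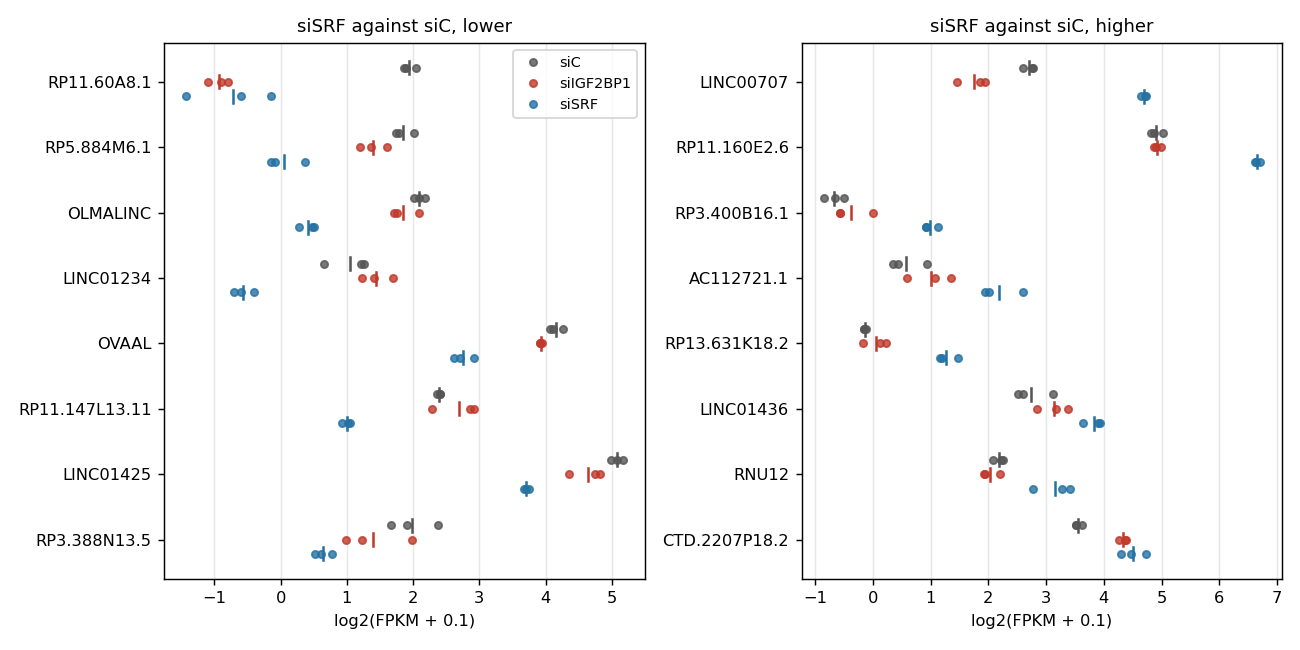
Level of the 8 members with the largest decrease (left) and the largest increase (right) upon SRF depletion among called members with at least 10 reads per library. The x axis is log2(FPKM + 0.1), each point is 1 library (siC grey, siIGF2BP1 red, siSRF blue) and ticks are condition means. Red points lie nearer to the grey than to the blue ones in most rows, and with the blue ones in RP11.60A8.1 and CTD.2207P18.2.

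Of the 57 members called in either knockdown, 8 were called in both, which is 30.8% of those called upon IGF2BP1 depletion and 20.5% of those called upon SRF depletion. Both comparisons use the same siC libraries, so an agreement in direction is in part built in. Lower in both were 4 members (0.9% of the 21108 genes tested in both comparisons were), higher in both was 1 (0.73% of genes), a fall with IGF2BP1 depletion but a rise with SRF depletion was called in 2 (0.673%), and the reverse in 1 (0.54%). The directions were thus the same in 5 members and opposite in 3. Over all genes, 190 were lower and 154 higher in both, while 142 and 114 had opposite directions, so same directions prevailed there too. Upon IGF2BP1 depletion 796 genes were called lower and 792 higher, and upon SRF depletion 1167 and 1498. The members' overlap was therefore not above the overlap over all genes. RP11.60A8.1 reached 1 FPKM only in siC and RP11.130L8.2 only in siIGF2BP1, so that their differences follow from the rule, and among members at 1 FPKM in each condition 4 had the same and 2 opposite directions. With the leaving out of any siC library no member was called in both (limma-trend). Between 42 and 52 then had an unadjusted p of at most 0.05 in both, a count not made over all genes. With all libraries, 130 and 158 of the 496 members passed that p upon IGF2BP1 and SRF depletion. Over all genes tested, 6511 of 22292 and 7580 of 21857 did. Without 1 siIGF2BP1 library there were 2, 6 and 1, and without 1 siSRF library 4, 4 and 6 (replicates 1 to 3). Limma-voom with all libraries found 13, with 6 in the same and 7 in opposite directions. Over the 6 fits that each leave out 1 library, RP11.60A8.1 kept its siIGF2BP1 call in 6 and its siSRF call in 1, LINC00704 in 1 and 2, RP11.211G23.2 in 1 and 2, FAM27C in 1 and 0, CTD.2207P18.2 in 5 and 2, LINC00707 in 0 and 6, AC058791.1 in 1 and 6, and RP11.130L8.2 in 0 and 6.

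RP11.211G23.2 (chromosome 11, plus strand, 69299274 to 69372512), the member with the highest level, was lower in both. It was at 168, 180.4 and 167 FPKM in siC, at 105, 119 and 111 in siIGF2BP1 and at 89.3, 71.1 and 91.9 in siSRF, with a log2 fold change of -0.62 (standard error 0.0613, adjusted p = 0.00178) for siIGF2BP1 and a log2 fold change of -1.04 (standard error 0.103, adjusted p = 0.00131) for siSRF. It shares exon bases on the same strand with MYEOV, a gene found overexpressed in myeloma. MYEOV itself was at 120.4, 131 and 121 FPKM in siC, at 78.2, 73.0 and 79.4 in siIGF2BP1 and at 109.6, 110.0 and 111 in siSRF. MYEOV thus fell with it upon IGF2BP1 depletion (-0.69 on the log2 scale, adjusted p = 0.000918), while upon SRF depletion MYEOV had -0.17 (adjusted p = 0.0363). The part of MYEOV reads in the member's value was not tested.

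LINC00704, now MANCR (mitotically associated long non-coding RNA), lies on chromosome 10, minus strand, 4581295 to 4678216. It was at 54.8, 55.6 and 56.0 FPKM in siC, at 26.1, 31.9 and 24.4 in siIGF2BP1 and at 46.7, 45.1 and 46.1 in siSRF. It fell to 49.5% of siC upon IGF2BP1 depletion, with a log2 fold change of -1.02 (standard error 0.0988, adjusted p = 0.00168), and to 82.9% upon SRF depletion, with a log2 fold change of -0.27 (standard error 0.0342, adjusted p = 0.00294). The fall was larger in siIGF2BP1, with a log2 difference from siSRF of -0.75 (adjusted p = 0.00185). RP11.60A8.1 (chromosome 5) was at 3.55, 4.04 and 3.61 FPKM in siC, at 0.436, 0.367 and 0.474 in siIGF2BP1 and at 0.563, 0.808 and 0.272 in siSRF. Its log2 fold changes were -2.87 and -2.66 (adjusted p = 0.000393 and 0.00286), which its choice through siC alone requires to be falls, and the difference between the knockdowns was -0.21 with a standard error of 0.400. FAM27C, at 3.93, 4.78 and 4.26 FPKM in siC, at 1.27, 1.78 and 1.15 in siIGF2BP1 and at 2.50, 1.96 and 2.20 in siSRF, had 11.9 reads per library and belongs to a family with near-identical copies, so its value is uncertain. Its siSRF call was not made by limma-voom (adjusted p = 0.0315).

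CTD.2207P18.2 (chromosome 14, minus strand, 74614693 to 74616647) was the member called higher in both. It was at 11.4, 11.3 and 12.1 FPKM in siC, at 19.1, 20.8 and 20.4 in siIGF2BP1 and at 19.5, 22.2 and 26.3 in siSRF, with a log2 fold change of 0.79 (standard error 0.0577, adjusted p = 0.000689) and a log2 fold change of 0.95 (standard error 0.109, adjusted p = 0.00215). All libraries of both knockdowns lay above those of siC. It starts 4269 bases from the start of LTBP2, a gene of the extracellular matrix on the same strand. LTBP2 was at 10.4, 12.2 and 11.0 FPKM in siC, at 17.3, 16.6 and 17.0 in siIGF2BP1 and at 14.8, 14.6 and 13.5 in siSRF.

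LINC00707 had the largest difference in opposite directions among members with at least 10 reads per library. It lies on chromosome 10, plus strand, 6779549 to 6842906, in 10 exonic blocks, 199248 bases from the nearest protein-coding start. It was at 6.71, 5.99 and 6.67 FPKM in siC, at 3.53, 2.63 and 3.73 in siIGF2BP1 and at 26.0, 26.4 and 24.9 in siSRF. The level fell to 51.1% of siC upon IGF2BP1 depletion, with a log2 fold change of -0.96 (standard error 0.145, adjusted p = 0.00763), and rose 3.99-fold upon SRF depletion, with a log2 fold change of 1.98 (standard error 0.0625, adjusted p = 6.07e-05). The 3 conditions did not overlap, and the log2 difference of siIGF2BP1 from siSRF was -2.94 (adjusted p = 3.61e-05). The highest adjusted p of the fall in siIGF2BP1 with 1 library left out was 0.0421.

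AC058791.1 (ENSG00000226380) showed the same order of conditions. It was at 19.3, 18.9 and 19 FPKM in siC, at 9.36, 11.0 and 9.13 in siIGF2BP1 and at 28.6, 26.8 and 29.7 in siSRF. These are log2 fold changes of -0.95 (adjusted p = 0.00112) and 0.57 (adjusted p = 0.000915), on 948 reads per library. RP11.130L8.2 went the other way, at 0.690, 0.670 and 0.630 FPKM in siC, 4.16, 2.19 and 2.42 FPKM in siIGF2BP1 and 0 FPKM in every siSRF library. It reached 1 FPKM only in siIGF2BP1 and rests on few reads, 6 in the siC libraries together, 30 in siIGF2BP1 and 0 in siSRF. Against a floor of 3 reads over the siSRF libraries, the siIGF2BP1 level was at least 10.1-fold higher and the siC level at least 2.29-fold higher. Limma-voom called it in neither knockdown (adjusted p = 0.0120 and 0.0118).

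**Figure D4:**
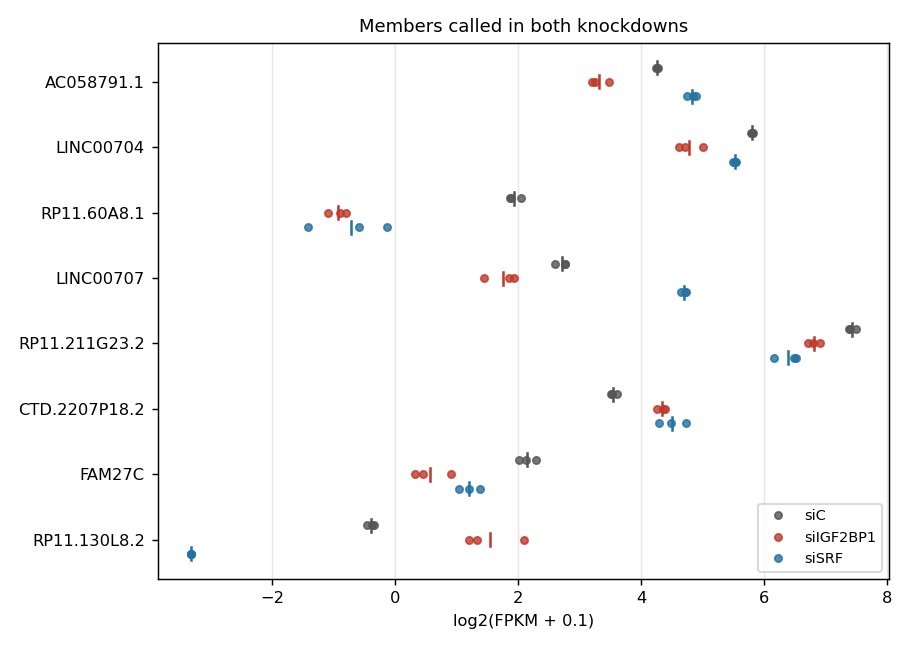
Level of the 8 members called in both knockdowns. The x axis is log2(FPKM + 0.1), each point is 1 library (siC grey, siIGF2BP1 red, siSRF blue) and ticks are condition means. LINC00707 and AC058791.1 have red points to the left and blue points to the right of the grey ones, RP11.130L8.2 has the reverse, and in the other 5 rows red and blue lie on one side of grey.

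The knockdowns were also set against each other, without the siC libraries. In siIGF2BP1, 29 members were lower and 53 were higher than in siSRF. Among all 22311 genes tested the lower ones prevailed, with 11.2% lower and 8.82% higher, while the members' shares were 5.85% and 10.7%. The median log2 difference was 0.18 for the members and 0.017 for all genes. Limma-voom called 37 lower and 74 higher members, with 16.3% and 14.7% of all genes. With 1 library left out, 37, 47 and 42 members were called (siIGF2BP1 replicates 1 to 3) or 45, 38 and 48 (siSRF replicates 1 to 3), with more higher than lower ones each time. Members below 1 FPKM in at least 1 condition mean made up 25 of the 82, and without them 25 were lower and 32 higher. Of the 49 members called in only 1 knockdown against siC, 37 were also called in the direct comparison, and 41 members were called in it alone. The direct comparison reuses the knockdown libraries behind those calls, so a repeated call is in part built in. The same count over all genes was not made.

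Among the 5 members per direction with the largest differences between the knockdowns were also 3 that had not been called against siC, and 2 of them are described here. RP11.249C24.10 (chromosome 16, near MT2A) was at 3.52, 2.16 and 2.66 FPKM in siIGF2BP1 and 8.52, 10.1 and 5.19 FPKM in siSRF, with a log2 fold change of -1.46 (standard error 0.285, adjusted p = 0.00984), a call that was lost with other pseudocounts, without the filter on low values, after rescaling and with all 9 libraries in 1 fit. RP11.474O21.5 (chromosome 1, near DHRS3) was at 8.69, 7.55 and 4.11 FPKM in siIGF2BP1 and 0.406, 0.318 and 0 FPKM in siSRF, with a log2 fold change of 4.57 (standard error 0.663, adjusted p = 0.00290) on 7.78 reads per library.

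Among members with known roles, NORAD fell upon SRF depletion. NORAD, a cytoplasmic RNA that binds Pumilio proteins and guards chromosome number, is 1 exonic block on chromosome 20 (minus strand, 36045618 to 36051018) and took 12% of all reads on members. It was at 84.5, 84.2 and 101 FPKM in siC, at 101, 107 and 101 in siIGF2BP1 and at 64.7, 63.1 and 62.8 in siSRF, with a log2 fold change of -0.50 (standard error 0.0779, adjusted p = 0.00617) for siSRF and a log2 fold change of 0.70 (standard error 0.0378, adjusted p = 7.25e-05) for siIGF2BP1 against siSRF. All siSRF libraries lay below all others. Upon IGF2BP1 depletion the log2 fold change was 0.20 (adjusted p = 0.168). Of the 6 genes on the list for chromatin and chromosome organisation, NORAD, FTX, JPX and FIRRE are members, while TUG1 and LINC.PINT are antisense transcripts in the tables. NORAD was the 1 of the 4 members called against siC (median log2 fold change of the 4 0.21 in siIGF2BP1 and 0.23 in siSRF). FTX and JPX, genes of the X-inactivation centre, and FIRRE, a nuclear RNA, had means of 1.87, 2.41 and 3.67 FPKM and siSRF log2 fold changes of 0.19, 0.43 and 0.27 (adjusted p = 0.332, 0.0437 and 0.0901). By limma-voom 2 of the 4 were called upon SRF depletion.

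The p53 list has 6 genes, of which LINC01021, TP53TG1 and PVT1 are members. ES-2 cells have been reported as p53-mutated, according to the authors, and p53 activity was not tested here. LINC01021, now PURPL, which is known as a p53-induced regulator of p53 levels, was at 9.36, 8.59 and 10.2 FPKM in siC, at 10.3, 13.4 and 9.67 in siIGF2BP1 and at 6.16, 4.57 and 5.76 in siSRF, with a log2 fold change of -0.77 (standard error 0.128, adjusted p = 0.00778) for siSRF. The siSRF libraries were the lowest, and the direct difference was 1.00 (adjusted p = 0.00429). TP53TG1 and PVT1, a neighbour of MYC, were not called in any comparison (adjusted p between 0.0630 and 0.887). Of the 14 cancer-linked genes, PVT1, LINC00511 and LUCAT1 are members and 4 were listed at 0 in all libraries. LUCAT1, named for lung cancer, was at 2.03, 1.77 and 1.71 FPKM in siC, at 3.01, 3.35 and 3.74 in siIGF2BP1 and at 2.03, 1.44 and 1.96 in siSRF, with a log2 fold change of 0.84 (standard error 0.135, adjusted p = 0.00990) for siIGF2BP1, just inside the threshold and not called with a pseudocount of 1, without the filter on low values or after rescaling. LINC00511 had a log2 fold change of -0.77 upon SRF depletion (adjusted p = 0.0205).

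Hosts of small nucleolar RNAs were among the members of highest level. Of the 25 genes on that list, SNHG8, SNHG9, SNHG15, SNHG18, SNHG19 and SNHG25 are members, and the others mostly carry the biotypes processed transcript or antisense. In all of these members but SNHG18 a small nucleolar RNA lies in an exon on the same strand, and reads of both cannot be told apart. SNHG19 was at 93.0, 92.1 and 107 FPKM in siC, at 97.6, 89 and 106 in siIGF2BP1 and at 104, 102 and 104 in siSRF, and the ranges overlapped. SNHG8 was at 99.4, 119 and 114 FPKM in siC, at 88.5, 85.3 and 90.6 in siIGF2BP1 and at 99.5, 97.7 and 97.7 in siSRF, with log2 fold changes of -0.32 and -0.17 (adjusted p = 0.0298 and 0.147). None of the 6 members was called against siC by limma-trend, whereas 4 had an unadjusted p of at most 0.05 in each knockdown and limma-voom called 2 in each. Over all genes tested, 6511 of 22292 (siIGF2BP1) and 7580 of 21857 (siSRF) had such an unadjusted p. The median log2 fold change of the 6 was -0.14 in siIGF2BP1 and -0.04 in siSRF. In the direct comparison SNHG15 was lower in siIGF2BP1, with a log2 fold change of -0.64 (standard error 0.0748, adjusted p = 0.00123), and SNHG18 was higher, with a log2 fold change of 1.86 (standard error 0.252, adjusted p = 0.00219). Of the 24 genes of the whole list that were tested, 3 were lower and 0 higher upon IGF2BP1 depletion by limma-trend (13 had an unadjusted p of at most 0.05 and limma-voom called 6), namely DANCR, SNHG1 and SNHG3, where 3.57% of all genes were lower. Upon SRF depletion 1 was lower (SNHG6, against 5.34% of genes) and 1 higher (SNHG7, against 6.85%), and in the direct comparison 6 were lower (11.2%) and 2 higher (8.82%) in siIGF2BP1.

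The remaining lists have no member. Of the 3 transcripts reported to bind IGF2BP1 protein, H19 and LINC01138 carry another biotype and also lie below the level threshold. LINC01138 had means of 0.265, 0.570 and 0.192 FPKM in siC, siIGF2BP1 and siSRF, on 41, 100 and 33 reads. Upon IGF2BP1 depletion limma-voom called it higher (adjusted p = 0.00668) and limma-trend did not (adjusted p = 0.123). Upon SRF depletion neither test called it. HULC, first described in liver cancer, was at 0.345 FPKM ± 0.132 (SD, n = 3) in siC on 4 reads and at 0 in both knockdowns. The 4 imprinted genes were all below the level tested. MYOSLID, a lincRNA of smooth muscle known to depend on SRF, lay just below the threshold at a mean of 0.920 FPKM. It was at 0.442 ± 0.0578 FPKM (SD, n = 3 here and next) in siC, at 2.1 ± 0.313 in siIGF2BP1 and at 0.213 ± 0.0273 in siSRF, and was called higher upon IGF2BP1 depletion (2.02 on the log2 scale, limma-trend adjusted p = 0.00236) and not upon SRF depletion (-0.79, adjusted p = 0.133). MYOSLID rests on few reads, 11 in the siC libraries together, 59 in siIGF2BP1 and 6 in siSRF. All siSRF libraries lay below those of siC, and at this depth the missing call does not show an unchanged level. CARMN, the other gene of that list, was listed near 0.

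**Figure D5:**
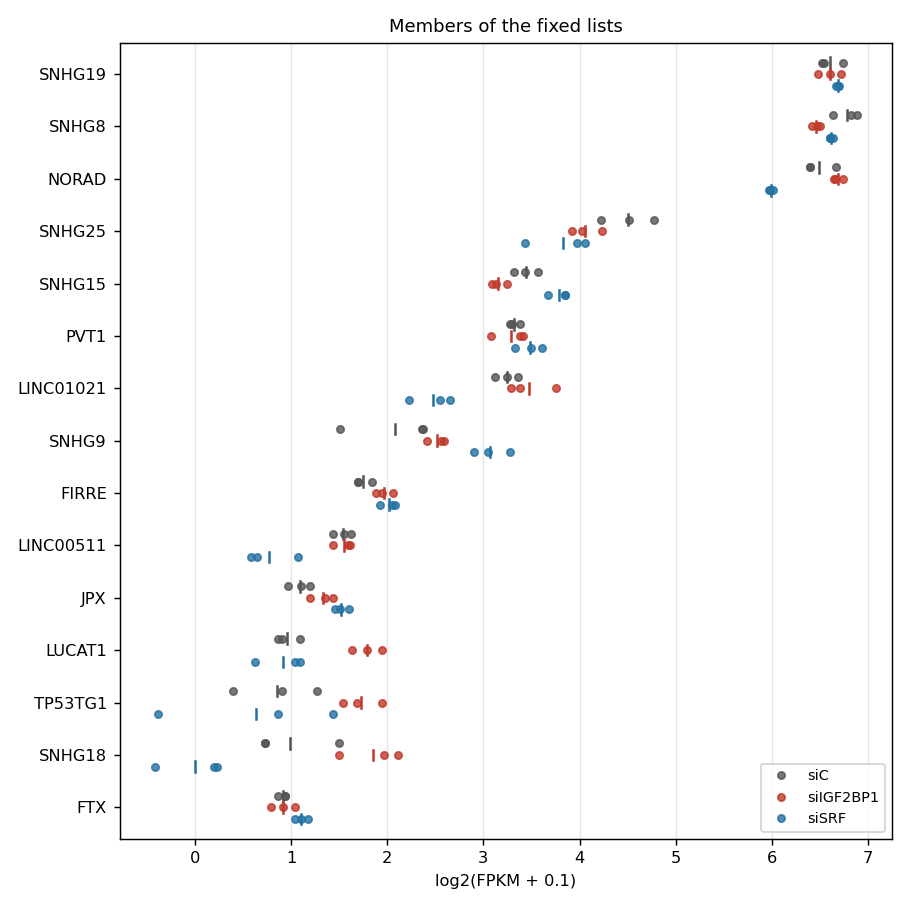
Level of the members that belong to the lists (snoRNA hosts, chromatin and chromosome organisation, p53 response, cancer-linked), ordered by mean level. The x axis is log2(FPKM + 0.1), each point is 1 library (siC grey, siIGF2BP1 red, siSRF blue) and ticks are condition means. The blue points of NORAD and LINC01021 lie to the left of all others, and the red points of LUCAT1 to the right.

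The CArG box was looked for in the promoters of members, on both strands, in the window from 250 bases before to 50 bases after the start that RefSeq gives (GRCh38.p14). A promoter was found for 168 members, and 2 of them (1.19%) held the box, against 454 of all 35116 promoters (1.29%). They are shown because SRF depletion is one of the conditions, as windows of 30 bases with the box in capitals. LINC00973 has it at chr3:98914325-98914354 (plus strand), upstream of a RefSeq start that lies apart from the GENCODE start of the gene (98981058), and LINC02163 at chr5:104080809-104080838 (plus strand).
LINC00973: acactttgatCCATTAATGGaatgtagctg
LINC02163: tcttatctccCCTTTAAAGGgcatagtatt
Neither passed the test. LINC00973 was at 17.0, 16.2 and 19.3 FPKM in siC, at 23.0, 22.8 and 30.7 in siIGF2BP1 and at 22.9, 23.4 and 18.8 in siSRF (adjusted p = 0.0419 and 0.0935), and LINC02163 had log2 fold changes of -0.02 and -0.22 (adjusted p = 0.960 and 0.716). A match is a run of letters and not a bound site.

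Members were last read beside the nearest protein-coding gene. Across the 377 pairs tested in siIGF2BP1 against siC, Pearson's r of the log2 fold changes was 0.227 and Spearman's rho 0.184, and across the 374 pairs in siSRF against siC they were 0.131 and 0.0591. The pairs share libraries, and some share a neighbour, so these values are a description. Upon IGF2BP1 depletion both the member and its neighbour were called in 7 pairs, in 5 of them in the same direction. Of the 377 pairs, 19 had a called member and 65 a called neighbour. Among the 5 is RP11.211G23.2 with MYEOV, which share exon bases. RP11.420A23.1 rose with PGRMC2 (log2 fold change of PGRMC2 1.68, adjusted p = 0.000501), LINC00601 with ADAM12 (1.36, adjusted p = 0.000215) and LINC01151 with ZHX2 (0.60, adjusted p = 0.00621). RP11.253E3.3 went the other way from TSPAN9, which rose by 1.54 (adjusted p = 0.000498) at a distance of 35918 bases on the same strand. Upon SRF depletion both were called in 6 pairs, in 2 of them in the same direction. Of the 374 pairs, 29 had a called member and 92 a called neighbour. OLMALINC fell with SCD, an enzyme of fatty acid desaturation 25866 bases away (-0.71, adjusted p = 0.00103), and RP3.388N13.5 fell with PDP1 (-0.54, adjusted p = 0.00123). LINC00601 was named here for its pair after its values had been seen.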

How the data were processed

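Ribosomal RNA was removed with RiboCop, libraries were made with a strand-marking NEBNext Ultra Directional kit and run on a NextSeq 500. Per the labels, the submitters' processing notes name cutadapt 1.14, HISAT2 2.1.0, SAMtools 1.5, featureCounts 1.5.3 and edgeR 3.18.1, with hg38 and Ensembl 89. The authors deposited 2 tables of FPKM values per gene and library, beside their own fold changes and p-values for each knockdown, which were not used. The siC values were identical in both tables, so the tables were joined by gene identifier. Whole reads were recovered from FPKM and gene length, with all values within 0.05 of a whole number.

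The test was limma-trend (R 4.3.3, limma 3.58.1) on log2(FPKM + 0.1) with 2 conditions (6 libraries) per fit, restricted to genes whose mean there reached 0.1 FPKM, Benjamini-Hochberg adjusted over all genes and called at 0.01. An exact permutation test of 3 against 3 libraries cannot go below 0.1. Library totals lay between 6421764 and 9416175 reads (median 7377934), and floors of 3 reads cover counting error only. Alternatives were other pseudocounts, filters, scalings and member rules, limma-voom on recovered reads, the replicate number as a block, all 9 libraries in 1 fit and the leaving out of each library. The script was tested on simulated data.

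Members and gene lists were chosen with earlier results of these data known. Named were the 6 members of highest level, the 8 called members per knockdown and direction with the largest change among those with at least 10 reads, members called in both knockdowns, the 5 per direction with the largest direct difference, members of the lists, the 3 genes on either side of the level threshold and called members with a CArG box. There were none of the last kind, so both uncalled members with a box are shown. MicroRNA hosts, neighbour pairs and others said to be so were chosen after their values had been seen. Positions come from GENCODE release 44, sequences from RefSeq (GRCh38.p14). A gene of the marker check and 1 member of the direct comparison are not reported here.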

Additional observations from a re-analysis of the deposited data

Results flagged for a closer look

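The difference between the knockdowns was tested directly, and 82 members differed. Among them, 3 were called in opposite directions against siC. LINC00707 was lower in siIGF2BP1 than in siSRF by a log2 difference of -2.94 and AC058791.1 by -1.52, while RP11.130L8.2 was higher by 4.86, on 30 reads in the siIGF2BP1 libraries together and 0 in siSRF. RP11.130L8.2 reached 1 FPKM only in siIGF2BP1, so that its difference follows from the rule that chose it.

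LincRNA genes below the level threshold were left out of the members, and some of them were called. Of 1188 such genes tested upon IGF2BP1 depletion, 13 were called (1 lower and 12 higher), 11 of them with fewer than 10 reads per library. Upon SRF depletion 8 of 1035 were called (2 lower and 6 higher), 5 with fewer than 10 reads. Between siIGF2BP1 and siSRF 42 of 1174 were called (5 lower and 37 higher in siIGF2BP1), 35 with fewer than 10 reads. Over all genes tested, 7.12%, 12.2% and 19.99% were called in these comparisons, in the same order. Lower and higher shares there were 3.57% and 3.55%, 5.34% and 6.85%, and 11.2% and 8.82%. Among all genes with fewer than 10 reads, 0.797%, 1.06% and 2.01% were called. Those low-read shares were not split by direction, so the directions of the lincRNA calls have no matched background.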

How the results depend on the processing

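Counts of called members depended on the test and the number of libraries more than on pseudocount, filter or scaling. Limma-voom called 53 members upon IGF2BP1 depletion, 68 upon SRF depletion and 13 in both. At an adjusted p of 0.05 there were 74, 90 and 151 (direct comparison), and 19 in both. With 1 library left out the counts lay between 4 and 10, between 12 and 21, between 37 and 48, and between 0 and 6 in both knockdowns. With the replicate number as a block 1, 8 and 41 members were called and 0 in both. There 52 had an unadjusted p of at most 0.05 in both, a count not made over all genes. The labels do not say whether same-numbered libraries were handled together. Deviations of same-numbered libraries correlated between -0.0438 and 0.0186 over 14168 genes, which cannot decide it with 3 libraries per condition. Without members that share an exon or have no GENCODE entry, 5 were called in both. AC058791.1 and FAM27C were left out there for the missing entry and not for a shared exon. Other alternatives moved no count by more than 1.5 times. Of 77 calls of single members, limma-voom kept 74 and the block 27, and no alternative turned a direction. The members had a median of 20.7 reads per library, and what size of change this depth can show was not measured.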

Other observations

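SMILR, a lincRNA described in smooth muscle and below the level threshold here, was chosen after its values had been seen. It had 1, 0 and 0 reads in the siC libraries, 10, 6 and 12 reads in siIGF2BP1 and 0 reads in every siSRF library. Its siIGF2BP1 level was at least 9.30-fold higher than the floor of 3 reads over the siSRF libraries, and limma-trend called it higher than in siC (adjusted p = 0.00873).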
